A study of Mus musculus with 14 samples.

Results

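H3K36me3 peak cover of genes was compared between round spermatids (RS) and pachytene/diplotene spermatocytes (PD) of wild-type (WT) mice, and set beside the RNA of the same genes. Members were the 19725 autosomal genes of the 20626 in the deposited tables, taken whatever their cover or RNA, with 34499 peaks in the RS WT list and 44358 in the PD WT list. Cover is the percent of a gene interval, from start to end and introns included, that lay under a peak of the list. Both groups were testis cells of adult C57BL/6J mice, sorted by flow cytometry on Ho33342/PI staining, with 1 H3K36me3 peak list and 2 polyadenylated RNA libraries each. RS and PD cells of mice labelled Setd2KO, with 1 list and 2 RNA libraries per cell type, served as a background for cover and shared the estimate of RNA spread. The labels used here give no numbers of animals, no sign that libraries of a group were separate animals, and no driver or deleted part for the Setd2KO allele. P-values therefore measure the spread between libraries, which may be technical, and cover had no replicate.

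H3K36me3 is trimethylation of lysine 36 of histone H3. Setd2, the main enzyme that places it, travels with elongating RNA polymerase II, so the mark usually lies over the bodies of transcribed genes and toward their 3′ ends. It can be removed by demethylases or diluted when DNA is replicated. Spermatocytes do not replicate their DNA again before they divide into round spermatids. Round spermatids then switch on genes for the acrosome, the flagellum and chromatin packaging, and later exchange histones for transition proteins and protamines.

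The promoters of 4 genes are shown because their genes had the 4 possible states of cover in these lists. Each line holds the 250 bases before the start, 5′ to 3′ on the strand of the gene, from RefSeq on GRCm38.p6, with every CG dinucleotide in capitals.
Tnp1 (chr1:73015900-73016149, minus strand): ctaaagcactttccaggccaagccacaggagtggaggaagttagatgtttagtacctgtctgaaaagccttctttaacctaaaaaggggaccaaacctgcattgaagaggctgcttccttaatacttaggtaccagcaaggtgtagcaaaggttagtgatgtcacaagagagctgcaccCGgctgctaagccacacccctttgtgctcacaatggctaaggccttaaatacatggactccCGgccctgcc
Prm1 (chr16:10796824-10797073, minus strand): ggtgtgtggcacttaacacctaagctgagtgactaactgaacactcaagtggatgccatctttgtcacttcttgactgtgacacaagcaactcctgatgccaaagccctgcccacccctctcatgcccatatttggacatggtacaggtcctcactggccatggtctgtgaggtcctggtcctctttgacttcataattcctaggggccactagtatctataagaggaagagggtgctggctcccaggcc
Tssk2 (chr16:17898387-17898636, plus strand): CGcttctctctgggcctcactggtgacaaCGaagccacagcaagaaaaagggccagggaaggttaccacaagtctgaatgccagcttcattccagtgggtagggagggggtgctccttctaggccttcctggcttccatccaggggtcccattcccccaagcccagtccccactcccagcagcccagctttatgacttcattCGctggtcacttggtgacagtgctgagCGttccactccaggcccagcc
Setd2 (chr9:110532347-110532596, plus strand): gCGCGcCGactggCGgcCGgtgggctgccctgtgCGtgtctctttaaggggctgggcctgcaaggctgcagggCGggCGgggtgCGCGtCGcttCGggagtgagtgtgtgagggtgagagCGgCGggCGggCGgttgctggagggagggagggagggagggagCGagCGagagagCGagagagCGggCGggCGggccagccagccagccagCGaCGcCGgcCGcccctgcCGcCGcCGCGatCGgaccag
Tnp1, uncovered in both lists, had 2 CG dinucleotides in this window, and Prm1, covered in both, had 0. Tssk2, which gained cover in RS, had 4, and Setd2, which lost it, had 31. The deposited peaks use build mm9, so the same window was read from the gene starts of the deposited tables and no coordinate was converted. That window lay wholly under a peak in RS but not in PD for Tssk2, wholly under a peak in both lists for Prm1, and outside the peaks of both for Tnp1. For Setd2 the window was under a PD peak over its whole length and under no RS peak. Of 32851 listed promoters, 92.1% held at least 1 CG, which reads the same on both strands, and the median was 6. Genes on in RS only (defined with the RNA results) without RS cover had a median of 5 CG (322 promoters listed for 410 genes), those with RS cover 13 (67 for 87), and genes on in both cell types 17 (3254 for 4125).

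The RNA libraries matched their labels on markers. Summed over 14 round spermatid markers, FPKM (fragments per kilobase of transcript, scaled to library size by the authors) was 5361 and 5170 in RS WT and 419 and 458 in PD WT. For 12 spermatocyte markers it was 455 and 444 in RS WT and 783 and 890 in PD WT. Markers of Sertoli cells summed to 18.2 and 21.7 FPKM in RS WT and 12.1 and 12.7 FPKM in PD WT, with Sox9, Gata4 and Fshr under 0.1 FPKM in all 4 libraries, and the other somatic lists to 21.0 FPKM or less. Markers of elongating spermatids, several of them shared with the round spermatid list, summed to 5537 and 5522 FPKM in RS WT and 258 and 234 FPKM in PD WT. In bulk RNA, fewer cells of a type and less RNA per cell cannot be told apart. Replicates correlated at Pearson's r = 0.995 in RS WT and 0.992 in PD WT over the 11084 autosomal genes tested, a description across genes. Depth relative to the first PD WT library, read from the smallest steps of FPKM, was 1.66 and 0.994 for the RS WT libraries and 1.01 for the second PD WT library. This reading rests on the most common value, held by 244 of 3496 and 298 of 3386 low-FPKM genes in the RS WT libraries. In the second PD WT library 647 of 4720 held it. The depth of the ChIP libraries is unknown. Cover of the same genes averaged 0.0163% in the RS Setd2KO list and 0.0567% in the PD Setd2KO list, with 0 and 17 genes at 25% or more.

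Cover was much alike in both cell types. It averaged 29.7% of the gene interval in RS WT and 31.0% in PD WT, and 6057 genes in RS and 6449 in PD were covered over at least 50% of their length. Cover was 0 in both lists for 10155 genes and at least 50% in both for 5600. It changed by under 10 percentage points for 16758 genes (85.0%), which include those at 0 in both. The share was 75.3% of genes tested in RNA and 70.1% of genes with at least 5 FPKM in both cell types. A gain, meaning cover at least 25 points higher in RS than in PD, was found for 469 genes (2.38% of all autosomal genes), and a loss of that size for 949 (4.81%). At 50 points there were 162 gains (0.821%) and 615 losses (3.12%), and among genes tested in RNA 1.43% gained and 5.33% lost at 50 points. Cover was at least 50% in RS and 0 in PD for 77 genes, and 0 in RS and at least 50% in PD for 357. With 1 list per cell type none of these counts has a test. The excess of losses was not seen when the top-scoring peaks of each list were taken up to the same 150 megabases, with 1352 gains and 1380 losses. That setting also drops the lower-scoring peaks, and with scores of at least 100 alone there were 598 gains and 1143 losses. Of the main calls, 190 gains and 543 losses were also called with that setting, with scores of at least 100 and with gaps under 1 kb filled.

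**Figure D1:**
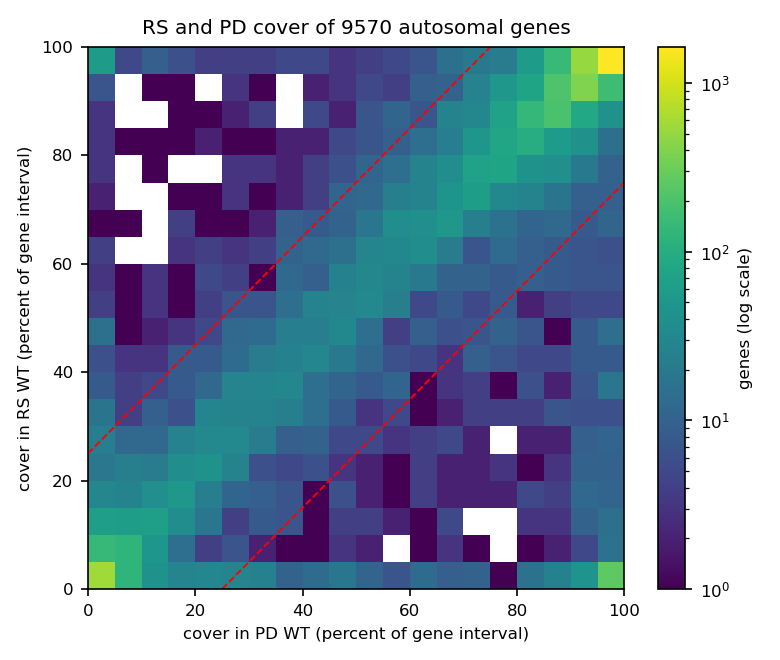
Cover of the 9570 autosomal genes with cover above 0 in at least 1 list, with RS WT cover (percent of the gene interval) on the vertical axis, PD WT cover on the horizontal axis and colour for the number of genes (log scale). Red dashed lines mark changes of 25 points, and genes gather at the diagonal, with smaller groups at the corners where 1 list covers the gene and the other does not.

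RNA differed for most tested genes. Of 11452 genes tested on log2(FPKM + 1), 4117 (36%) were higher in RS and 5352 (46.7%) lower (limma, Benjamini-Hochberg adjusted p under 0.05), and of 11084 on autosomes 3760 (33.9%) were higher and 5350 (48.3%) lower. The median log2 change of all tested genes was −0.21, and it was −0.33 under quantile normalization, so log2 changes of single genes and lists are given relative to −0.21, while p-values test the deposited scale against 0. The log2 scale understates changes of genes with low FPKM. Genes whose RNA was much higher in RS mostly had little cover in either cell type, although 31.8% of all RNA-higher genes had RS cover of at least 50% and 31.4% had PD cover of that size. Mean cover of the 417 genes with a log2 change over 4 was 10.7% in RS and 6.56% in PD, and 78.4% of them had no RS peak. Mean cover of the 490 genes with a log2 change of −3 to −2 was 75.1% in RS and 81.6% in PD. Mean cover was lower in each successive bin between these, in both lists.

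Cover in RS followed the RNA level of PD more closely than that of RS. Genes on in RS only (at least 5 FPKM in RS and under 1 FPKM in PD, 497 genes) had a mean cover of 4.98% in RS and 3.79% in PD. RS cover was 0 for 82.5% of them and at least 50% for 17 genes (3.42%). Genes on in PD only (at least 5 FPKM in PD and under 1 FPKM in RS, 169 genes) had a mean cover of 68.7% in RS and 74.9% in PD, and 130 (76.9%) had at least 50% in RS. Genes on in both (4125) averaged 73.0% in RS and 77.8% in PD, and genes off in both (9249) 2.33% and 2.49%. These classes had different PD levels by definition, so RS levels were also held fixed. Among genes of 20 to 100 FPKM in RS, mean RS cover was 2.90% where PD had under 1 FPKM (153 genes), 20.4% at 1 to 5 FPKM in PD (290 genes), 71.4% at 5 to 20 FPKM (360 genes) and 77.3% at 20 to 100 FPKM (1120 genes). Among genes of 5 to 20 FPKM in PD, mean RS cover was 68.6%, 70.2%, 67.8% and 71.4% at under 1, 1 to 5, 5 to 20 and 20 to 100 FPKM in RS (164, 1259, 1501 and 360 genes), but 44.6% at 100 FPKM or more (42 genes). Among genes of 1 to 5 FPKM in PD it was 44.7%, 47.2%, 49.6%, 20.4% and 16.0% over the same 5 ranges of RS, so it was lower where RS levels were high. Across the 11084 tested genes Spearman's rho was 0.608 between RS cover and PD FPKM and 0.270 between RS cover and RS FPKM. It was 0.684 between PD cover and PD FPKM and 0.061 between the change in cover and the log2 change of RNA, a description of genes that share libraries and peak lists.

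**Figure D2:**
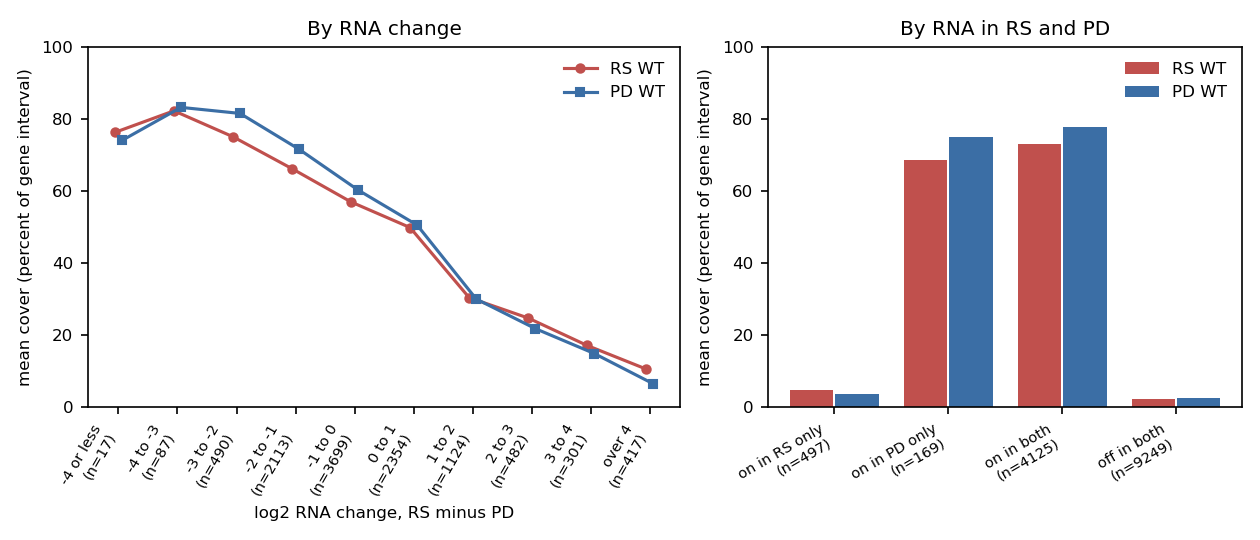
Mean cover (percent of the gene interval) in RS WT and PD WT by log2 RNA change on the deposited scale (left, lines) and by RNA class (right, bars; on means at least 5 FPKM, off in the other cell type means under 1 FPKM, n is genes). Both lists fall together from the bin of −4 to −3 on, while the first bin (17 genes) stands lower, at 76.3% in RS and 74.1% in PD. Genes on in RS only stand at 4.98% and 3.79%.

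Among genes with cover to lose, losses were about as frequent in each RNA class. Of genes with PD cover of at least 50%, a loss was found for 131 of 1181 RNA-higher genes (11.1%, exact 95% interval 9.36% to 13.0%), 159 of 1298 not called (12.2%, 10.5% to 14.2%) and 508 of 3847 RNA-lower genes (13.2%, 12.2% to 14.3%). In the genes with a log2 change of −2 or less it was 61 of 524 (11.6%, 9.02% to 14.7%), and over all tested genes 12.6%. Of genes with PD cover under 50%, a gain was found for 133 of 2579 RNA-higher genes (5.16%, 4.34% to 6.08%), 67 of 676 not called (9.91%, 7.76% to 12.4%) and 140 of 1503 RNA-lower genes (9.31%, 7.89% to 10.9%). At a log2 change of −2 or less a gain was found for 15 of 70 such genes (21.4%, 12.5% to 32.9%). With RNA higher by at least 2 it was 66 of 1030 (6.41%, 4.99% to 8.08%), and over all tested genes 7.15%. Without regard to PD cover, 4.57% of RNA-higher genes gained and 4.10% lost, against 3.29% and 10.4% of RNA-lower genes, and 3.97% and 8.05% of all tested genes. The intervals cover counting error of genes only, and genes are not replicates.

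Along the gene, the order of the classes was the same as over whole genes. For autosomal genes of at least 10 kb, 731 genes with RNA higher by at least 2 on the log2 scale had a mean cover of 12.8% in RS and 7.64% in PD in the first of 10 body bins, and 19.5% in RS and 19.9% in PD in the last. RS cover exceeded PD cover in bins 1 to 9, with the widest gap in the first. For 432 genes with RNA lower by at least 2, the first bin stood at 58.9% in RS and the last at 82.3% in RS, so these bodies kept the 3′ weighted shape in the cell type in which their RNA was low.

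**Figure D3:**
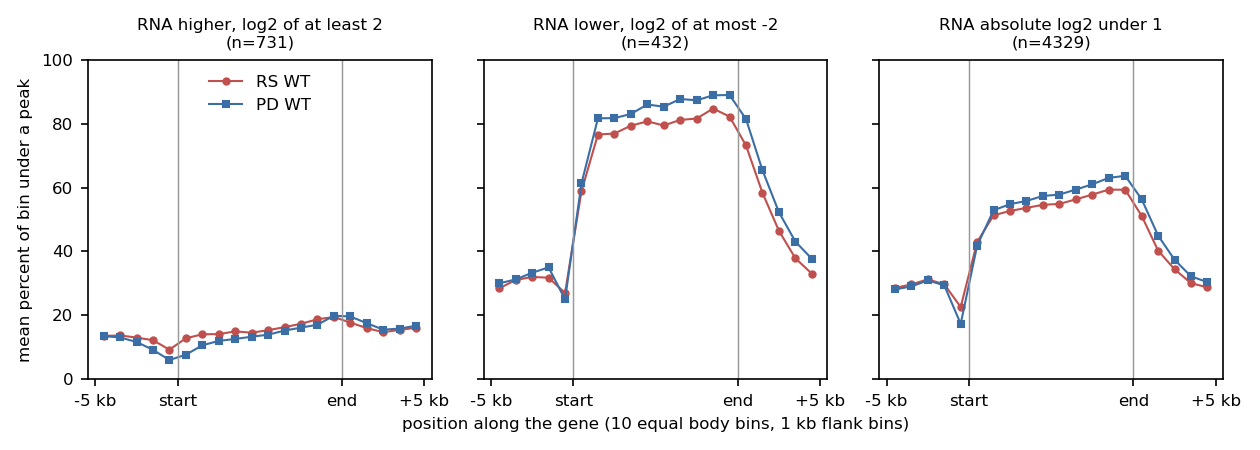
Mean percent of each bin under a peak in RS WT and PD WT, from 5 kb before the start to 5 kb after the end of genes of at least 10 kb, in 10 equal body bins and 1 kb flank bins, for RNA higher by at least 2, lower by at least 2 or changed by under 1 (log2). The RS curve lies above the PD curve near the start of the RNA-higher genes and below it in the bodies of the other classes, the first bin of the genes changed by under 1 excepted.

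The listed protamine and transition protein genes all rose in RNA (5 of 5, against 33.9% of autosomal genes tested) and differed in cover, with 0 gains and 1 loss. Prm1 (chr16:10796425-10796916 in mm9) and Prm2 (chr16:10791470-10792198) encode the protamines, which replace histones in sperm. Prm1 had 941 and 912 FPKM in RS WT, against 43.6 and 43.0 FPKM in PD WT, a relative log2 change of 4.60 ± 0.18 (SE; limma, adjusted p = 2.84e-09). Prm2 had 847 and 1013 FPKM in RS WT, against 57.7 and 38.5 FPKM in PD WT (4.48 ± 0.21, limma, adjusted p = 6.76e-09). Both intervals were wholly covered in RS and in PD, a value that cannot go higher. The RS peak over both spanned 10728 bases with the authors' score of 1082, and the PD peaks spanned 4296 bases over Prm1 (score 418) and 2393 bases over Prm2 (score 154). Tnp2 (chr16:10788028-10788748), a transition protein gene beside them, rose as well, with 1067 and 933 FPKM in RS WT and 38.2 and 38.0 FPKM in PD WT (4.89 ± 0.19, adjusted p = 2.71e-09). Its cover was 6.52% in RS and 100% in PD, from a RS peak of 1849 bases (score 133) that overlapped 1 end of it and a PD peak of 2722 bases (score 101). Prm3, a related gene in the same cluster, was covered over 7.13% in RS and 28.0% in PD and had 166 and 155 FPKM in RS WT, against 3.99 and 4.09 FPKM in PD WT. Tnp1 (chr1:73061649-73062473), the other transition protein gene, reached 1067 and 948 FPKM in RS WT and 37.1 and 35.2 FPKM in PD WT with no peak in either list. The nearest peak was 114346 bases away in RS and 120023 bases away in PD.

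Acrbp (chr6:124999945-125004211), whose product binds proacrosin in the acrosome, was wholly covered in both lists. It had 310 and 283 FPKM in RS WT, against 152 and 192 FPKM in PD WT (relative log2 change 1.00 ± 0.16, limma, adjusted p = 0.000824). Setd2 (chr9:110435101-110521137), the writer of the mark, went the other way. Its cover was 0 in RS and 99.8% in PD, where 2 peaks of 41435 and 50731 bases lay over it with scores of 263 and 248. Its RNA was 5.24 and 5.58 FPKM in RS WT and 21.2 and 19.09 FPKM in PD WT (−1.51 ± 0.15, adjusted p = 7.22e-07). With the top-scoring 150 megabases of each list, Setd2 and Tnp2 had no cover in either list, and Prm2 was covered in RS only.

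**Figure D4:**
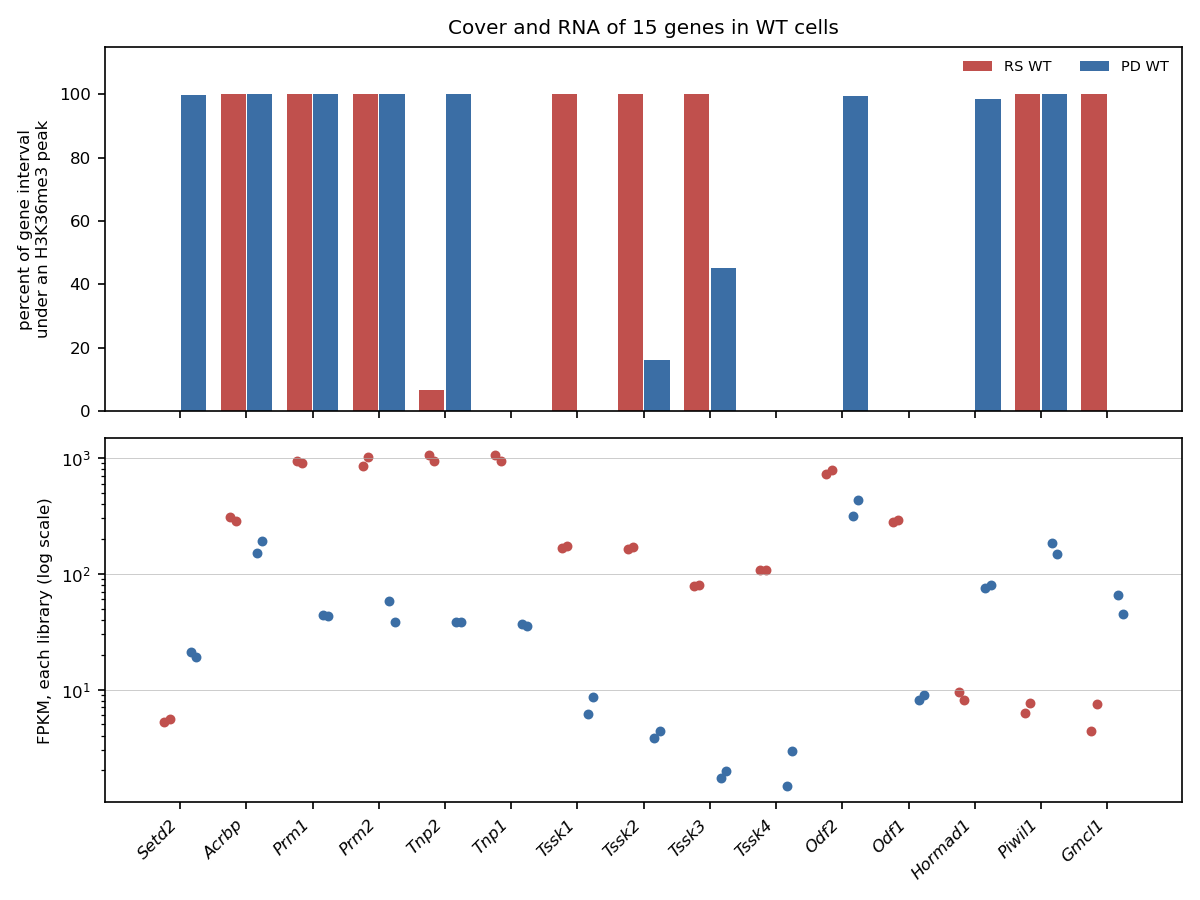
Cover in RS WT and PD WT (bars, percent of the gene interval) above FPKM in each of the 2 RNA libraries per cell type (points, log scale) for 15 genes. Prm1, Prm2 and Acrbp are covered in both, Tssk1 and Gmcl1 in RS only, Setd2, Odf2 and Hormad1 in PD only, and Tnp1, Tssk4 and Odf1 in neither.

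The testis-specific serine kinases, enzymes of late spermatid development, held the clearest gain among the lists of spermatid genes. Of 6 autosomal members, all tested, 6 rose in RNA, 3 gained cover and 0 lost it. Among autosomal genes tested, 33.9% rose in RNA, 3.97% gained cover and 8.05% lost it. For tested genes of up to 2 kb the shares were 7.09% gained and 8.62% lost. Tssk1 was covered over 100% in RS and 0% in PD, Tssk2 over 100% and 16.3%, and Tssk3 over 100% and 45.2%. Tssk1 (chr16:17894296-17895746 in mm9) and Tssk2 (chr16:17898730-17900117) are close neighbours, so their gains may not be separate events. Tssk2 had 163 and 170.2 FPKM in RS WT, against 3.82 and 4.42 FPKM in PD WT. All 3 gains were also called at the same covered length, with the higher score and with gaps filled. Tssk4, at 108.0 and 107.5 FPKM in RS WT and 1.48 and 2.94 FPKM in PD WT, had no peak in either list, and Tssk5 had none in RS. The genes of this list were short, with a median of 1607 bases, so 1 peak edge could decide their cover.

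Most genes of sperm-egg binding and the acrosome rose in RNA, beside 33.9% of autosomal genes tested, and their changes of cover stand beside 3.97% gained and 8.05% lost among tested genes. In sperm-egg binding and fusion, 19 of 29 autosomal members rose and 6 fell, 3 gained cover and 0 lost it, and mean cover was 43.0% in RS and 34.9% in PD. Izumo3, a member of the family of Izumo1, which binds the egg, was covered over 100% in RS and 0% in PD and had 73.1 and 64.4 FPKM in RS WT, against 3.89 and 4.46 FPKM in PD WT. Izumo4, covered likewise, had 72.8 and 64.0 FPKM in RS WT, against 53.9 and 62.6 FPKM in PD WT, and its RNA did not pass (limma, adjusted p = 0.155). Pdilt, a spermatid chaperone of the endoplasmic reticulum, rose by 5.60 on the relative log2 scale with no peak in either list. In the acrosome list 21 of 29 rose and 4 fell, 2 gained cover and 1 lost it, and 12 had no peak in either list. Spaca4, an acrosomal membrane protein, was covered over 100% in RS and 13.1% in PD with 120 and 112 FPKM in RS WT and 1.43 and 3.30 FPKM in PD WT. Its interval overlaps another gene. Acrv1, an acrosomal matrix protein, was covered over 42.0% in RS and 0% in PD and rose by 5.78.

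Fibrous sheath genes mostly rose, whereas axonemal and ion channel genes moved in both directions. Over all autosomal genes the shares were 33.9% higher and 48.3% lower in RNA, of those tested, and 2.38% gained and 4.81% lost in cover. Of tested genes, 3.97% gained and 8.05% lost cover. In the fibrous sheath and outer dense fibres, which wrap the sperm tail, 13 of 15 rose and 0 fell, with 2 gains and 2 losses of cover. Akap3, a scaffold of the fibrous sheath, was covered over 68.2% in RS and 42.2% in PD and rose by 5.17. Odf1, a main protein of the outer dense fibres, had 279 and 291 FPKM in RS WT, against 8.14 and 9.01 FPKM in PD WT with no peak in either list. Odf2, another of these proteins, lost its cover (0% in RS and 99.4% in PD) although its RNA was at 724 and 786 FPKM in RS WT, against 318 and 430 FPKM in PD WT (1.24 ± 0.18, limma, adjusted p = 0.000264). Its interval differed between tables, and the loss was called in all 4 settings of the peaks. In the axoneme and flagellum list 19 of 44 rose and 11 fell, with 1 gain and 3 losses. Spag6, a protein of the central pair of microtubules, rose by 5.52 with no peak in either list, and Cfap61 rose by 1.40 with cover of 0% in RS and 96.4% in PD. Among CatSper and sperm ion transport genes 8 of 19 rose and 8 fell, with 1 gain and 1 loss, and the gain was Efcab9, a calcium sensor of the CatSper channel, covered over 80.9% in RS and 40.6% in PD. Of sperm glycolysis genes 10 of 17 rose and 3 fell, with 1 gain and 0 losses. In manchette and head shaping 15 of 32 rose and 7 fell, with 4 gains and 2 losses, among them Spag4, a SUN-domain protein, covered over 83.0% in RS and 29.3% in PD.

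Regulators of the spermatid programme were mixed. Of the post-meiotic transcription factors 12 of 24 rose and 5 fell, with 2 gains and 1 loss. Creb3l4 was covered over 68.4% in RS and 15.7% in PD and rose by 4.83, and Foxj1, the factor of motile cilia, over 45.6% and 0% and rose by 4.82. Rfx4 lost its cover (0% in RS and 99.4% in PD) while its RNA was at 22.1 and 23.0 FPKM in RS WT, against 26.0 and 29.6 FPKM in PD WT and did not pass. Among genes of the exchange of histones for protamines, 10 of 26 members were called higher and 12 lower, with 3 gains and 2 losses. Bag6, a chaperone, was covered over 98.2% in RS and 0% in PD at 129 and 139 FPKM in RS WT and 94.0 and 118 FPKM in PD WT, which did not pass. Hist1h2ba, the testis histone H2B, was covered over 100% in RS and 74.3% in PD although its RNA was at 15.5 and 21.8 FPKM in RS WT, against 1030.0 and 1453 FPKM in PD WT. Hist1h1t, the testis linker histone, had 8.76 and 9.90 FPKM in RS WT, against 596 and 766 FPKM in PD WT with no peak in either list. Of 31 clustered replication-type histone genes 28 had no peak in either list, and of the 28 tested in RNA 2 were higher and 25 lower. Most transcripts of such genes end without a poly(A) tail, whereas the libraries were made from polyadenylated RNA, and reads of near-identical copies may be shared.

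Most members of the 5 meiotic lists fell in RNA, beside 48.3% of autosomal genes tested, and the losses of cover stand beside 4.81% of all autosomal genes and 12.6% of tested genes with PD cover of at least 50%. In the synaptonemal complex, which joins homologous chromosomes, 2 of 14 rose and 10 fell, with 0 gains and 2 losses. Hormad1, an axis protein, was covered over 0% in RS and 98.6% in PD and had 9.48 and 8.15 FPKM in RS WT, against 76.0 and 79.2 FPKM in PD WT (−2.79 ± 0.16, limma, adjusted p = 9.49e-09). Hormad2 was covered over 27.9% in RS and 71.4% in PD, but over 19.6% in RS and 16.2% in PD at the same covered length. Of 36 meiotic recombination genes 30 were tested in RNA, and 6 rose and 23 fell. This list had 0 gains and 4 losses, and Rpa1, a single-strand DNA binding protein, was covered over 0% in RS and 99.7% in PD. Among cohesin and shugoshin genes 4 of 17 rose and 11 fell, with 1 gain and 4 losses. Smc3, a core cohesin subunit, was covered over 85.8% in RS and 23.5% in PD, with 23.3 and 24.8 FPKM in RS WT and 2.39 and 2.52 FPKM in PD WT. In meiotic division 8 of 34 rose and 21 fell, with 1 gain and 3 losses. Cdk2, a cyclin-dependent kinase, had 2.01 and 2.38 FPKM in RS WT, against 31.1 and 33.2 FPKM in PD WT with cover of 100% in RS and 93.6% in PD. Of the piRNA pathway and germ granule genes 4 of 26 rose and 18 fell, with 1 gain and 2 losses. Piwil1, the PIWI protein of pachytene piRNAs, was wholly covered in both lists while its RNA was at 6.33 and 7.58 FPKM in RS WT, against 186 and 148 FPKM in PD WT (−4.18 ± 0.18, adjusted p = 2.98e-09). Pld6, a piRNA nuclease, gained cover (100% in RS and 0% in PD) while its RNA fell by 2.44 on the relative log2 scale.

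Members that write, remove or read the mark were covered as follows, beside a loss for 4.81% of all autosomal genes and for 12.6% of tested genes with PD cover of at least 50%. Of 11 autosomal H3K36 methyltransferases and partners 5 lost cover and 1 gained, and of the 9 tested in RNA 0 rose and 5 fell. The mean cover of the list was 16.7% in RS and 50.3% in PD. Nsd1, which places the lower methylation states of H3K36, was covered over 0% in RS and 92.8% in PD and had 1.22 and 1.27 FPKM in RS WT, against 4.90 and 4.38 FPKM in PD WT. Ash1l, another such enzyme, was covered over 26.2% in RS and 97.8% in PD and fell by 0.38 relative to all genes. Iws1, a partner of Setd2 in elongation, was covered over 18.9% in RS and 95.9% in PD at 7.44 and 6.69 FPKM in RS WT and 7.29 and 8.0 FPKM in PD WT, which did not pass. These genes were long, with a list median of 72854 bases, beside 16260 for all autosomal genes. Of 9 H3K36 demethylases 2 lost cover and 1 gained, 3 rose and 6 fell. Kdm4a, a demethylase of H3K9 and H3K36, lost cover (27.7% in RS and 92.5% in PD, its interval differing between tables) and rose by 1.51, and Kdm2a lost cover (46.1% in RS and 98.6% in PD) and fell by 1.43. Of 19 readers of the mark 4 lost cover and 0 gained, and of the 17 tested in RNA 2 rose and 14 fell. Glyr1, a nucleosome binding cofactor, was covered over 0% in RS and 99.4% in PD and had 10.1 and 10.3 FPKM in RS WT, against 29.8 and 33.1 FPKM in PD WT, and Brd1 and Mtf2 also lost cover.

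In the lists of general gene expression, losses of cover stand beside 12.6% of tested genes with PD cover of at least 50% and 4.81% of all autosomal genes, and RNA calls beside 33.9% higher and 48.3% lower. The counts for several of these lists were near those shares. Of 31 RNA polymerase II elongation factors 5 lost cover and 0 gained, and of the 29 tested in RNA 9 rose and 16 fell. Their mean cover was 65.0% in RS and 79.0% in PD. Supt16, a subunit of the histone chaperone FACT whose interval overlaps another gene, was covered over 0% in RS and 98.7% in PD and fell by 1.41, whereas Ccnt1, a cyclin of the elongation factor P-TEFb, over 0% and 96.6% and rose by 1.85. Ell2, an elongation factor, rose by 3.76 with no peak in either list. Of 45 splicing factors 2 rose and 39 fell, with 0 gains and 6 losses, and mean cover was 85.3% in RS and 95.1% in PD. Hnrnpl, an RNA binding protein, kept its cover (97.7% in RS and 98.3% in PD) with 3.73 and 4.65 FPKM in RS WT and 61.1 and 58.2 FPKM in PD WT. In germ cell mRNA storage and translation 6 of 30 rose and 17 fell, with 0 gains and 5 losses, and mean cover was 60.4% in RS and 76.5% in PD. Fxr1, an RNA binding protein whose interval overlaps another gene, lost cover (0% in RS and 98.3% in PD) and rose by 0.88, with 162 and 169 FPKM in RS WT and 99.0 and 108 FPKM in PD WT. Dazap1 lost cover (0% in RS and 99.7% in PD) and fell by 1.39. Of 57 cytosolic ribosomal protein genes 0 rose and 25 fell, with 2 gains and 7 losses. Of 47 oxidative phosphorylation genes 2 rose and 23 fell, with 2 gains and 3 losses, and of 34 proteasome genes 3 rose and 22 fell, with 1 gain and 4 losses. Heat shock and DnaJ genes had 12 of 36 higher and 10 lower, with 2 gains and 2 losses. Over the 27 lists the median change in cover was within 5 points of 0 for 26, the exception being the testis-specific serine kinases, beside a median of 0 over all autosomal genes.

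**Figure D5:**
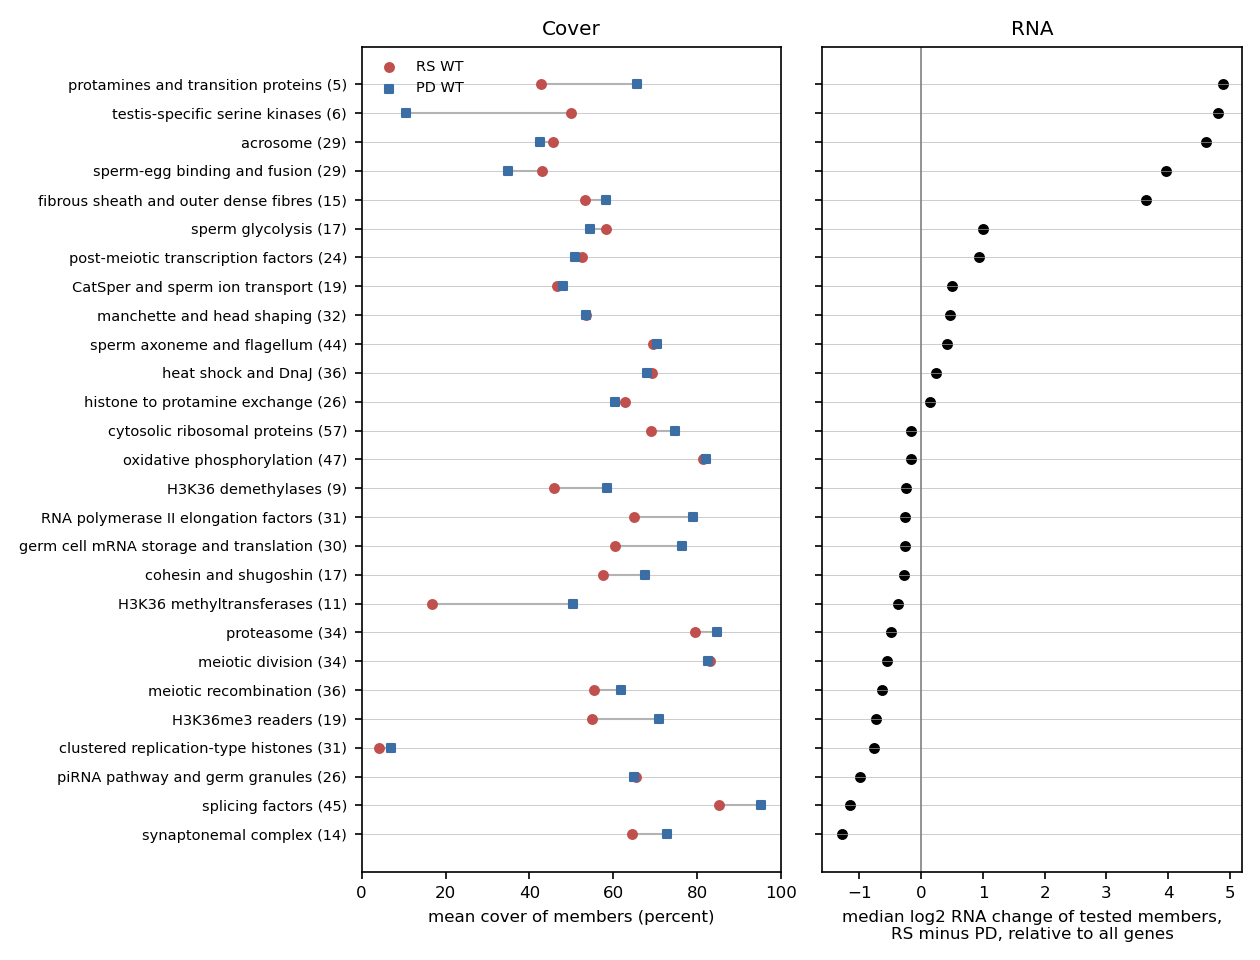
Mean cover of the autosomal members of 27 gene lists (left, percent, RS WT circles and PD WT squares, number of members in brackets) beside the median log2 RNA change of their tested members, RS minus PD, relative to all genes (right). Lists are ordered by RNA change, and the kinases and the H3K36 methyltransferases have the widest gaps between RS and PD cover.

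Genes were also ranked by covered bases gained or lost, a measure that favours long genes. Losses were led by Stk39 (a kinase, covered over 28.0% in RS and 97.3% in PD), Usp34 (a deubiquitinase whose interval overlaps another gene, 0% and 86.7%), Map4 (a microtubule binding protein, 0% and 98.2%) and Lekr1 (10.5% and 93.9%). RNA of Map4 rose, with 45.8 and 44.4 FPKM in RS WT and 26.4 and 31.5 FPKM in PD WT (0.84 ± 0.14, limma, adjusted p = 0.00123), and RNA of Usp34 did not pass (adjusted p = 0.184). Gains were led by R3hdm1 (97.0% in RS and 34.7% in PD), Cep350 (a centrosomal protein, 99.2% and 41.8%), Eml4 (94.0% and 41.6%) and Ep300 (a histone acetyltransferase, 98.7% and 0%). RNA of Ep300 rose by 0.89 and that of Eml4 fell by 0.88. Genes that lost at least 50 points had a median length of 36598 bases, and 85.0% of them touched a strip of at least 20 kb under PD peaks and no RS peak. Genes that gained at least 50 points had a median length of 21687.5 bases, and 59.9% of them touched such a strip under RS peaks only. Of 6906 genes covered over at least 50% in at least 1 list, 10.4% touched a PD-only strip and 2.14% an RS-only strip. Gaps under 1 kb were filled before strips were drawn, and a large change in a long gene makes touching a strip likely by definition. Such strips numbered 132 in RS only (5.01 megabases) and 663 in PD only (31.2 megabases), and the longest were 76210 bases in RS only and 187448 bases in PD only. The share of tested genes with a loss did not follow length in order, at 8.62%, 8.96%, 5.62%, 3.63%, 8.70%, 14.4% and 8.63% for genes of up to 2, 2 to 5, 5 to 10, 10 to 20, 20 to 50, 50 to 100 and over 100 kb.

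Cover changed against the RNA in single genes of both directions. Impdh2, an enzyme of guanine nucleotide synthesis, lost all cover (0% in RS and 100% in PD) while its RNA was at 113 and 101 FPKM in RS WT, against 13.1 and 13.7 FPKM in PD WT (3.12 ± 0.15, limma, adjusted p = 9.32e-09). Nbr1, an autophagy receptor, lost cover (0% in RS and 95.4% in PD) and rose by 3.21, its interval differing between tables. Gmcl1, a germ cell protein, gained cover (100% in RS and 0% in PD) with 4.36 and 7.50 FPKM in RS WT and 66.0 and 44.8 FPKM in PD WT. Nap1l4, a histone chaperone, and Tpr, a nuclear pore protein whose interval overlaps another gene, gained cover likewise and fell by 2.02 and 2.34. Calm2, which encodes calmodulin, kept its cover (96.5% in RS and 95.6% in PD) with 31.2 and 35.2 FPKM in RS WT and 510 and 626 FPKM in PD WT. Tex33, with 382 and 349 FPKM in RS WT and 5.23 and 8.76 FPKM in PD WT, had no peak in either list.

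The peak lists differ in ways that touch these losses. Of RS peaks 80.7% touched a PD peak by at least 1 base (exact 95% interval 80.3% to 81.2%), and of PD peaks 86.5% touched a RS peak (86.2% to 86.9%). Peaks of at least 20 kb numbered 2651 in RS and 1950 in PD. The authors' score was highest in peaks of 10 to 20 kb, with medians of 890.2 in RS and 925 in PD. In peaks of 20000 to 30000 bases, 1643 in RS and 1298 in PD, the medians were 581 and 646. In the few peaks over 60 kb, 24 in RS and 13 in PD, they were 116 and 84.9. The lowest medians, 58.75 in RS and 60.23 in PD, were those of peaks of up to 1000 bases. The lowest score was 50 in both lists. In genes that lost at least 50 points (median length 36598 bases) 50.7% of PD cover came from peaks of at least 20 kb. The share was 25.2% in genes covered over at least 50% in both lists (median length 18187.5 bases). The part of gene length in this contrast was not tested. In genes that gained at least 50 points 75.01% of RS cover came from such peaks, but the RS share in genes covered in both was not computed. Such peaks held 79.7 of 229.9 megabases in the RS list and 56.1 of 238.3 megabases in the PD list. Of the genes named for a gain or a loss, calls held in all 4 peak settings for Cep350, Spaca4, Efcab9, Bag6, Hist1h2ba, Tssk1, Tssk2, Tssk3, Izumo3, Pld6, Spag4 and Nap1l4 among gains. Among losses they held for Usp34, Map4, Lekr1, Nsd1, Odf2, Rfx4, Dazap1, Fxr1, Hormad1, Iws1, Kdm2a, Glyr1, Brd1, Mtf2, Supt16, Impdh2 and Nbr1. For the others named, Setd2, Smc3, Ep300 and Gmcl1 included, at least 1 setting fell short of 25 points. The part of peak calling in the gains and losses of cover was not tested.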

How the data were processed

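H3K36me3 ChIP-seq (1 peak list per group, with spike-in chromatin per the labels' protocols) and RNA-seq (2 libraries per group) were used in 4 groups, RS and PD of WT and of Setd2KO mice. The authors deposited peak lists with a score per peak and gene tables of FPKM, and how spike-in reads entered the peaks is not given in the sources used here. Per the submitters' processing notes, the tools were Bowtie and bedtools for ChIP and TopHat2, Cufflinks and Cuffdiff for RNA, CASAVA for both, and the build mm9. Whether counting used the strand of the directional kit is not given there. Input libraries and the 901 genes on the sex chromosomes were not analysed here.

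Cover was computed in Python 3.11.15 (pandas 2.3.3, numpy 2.4.6, scipy 1.17.1, matplotlib 3.10.9) over the intervals of the PD WT gene table. RNA was tested with limma 3.58.1 in R 4.3.3, with a mean-variance trend, on log2(FPKM + 1) of all 8 libraries, for genes whose mean reached 1 FPKM in any group, and tested on simulated data first. The fit had 4 residual and 6.92 prior degrees of freedom, and p-values were adjusted by Benjamini-Hochberg over all tested genes. Percentages carry exact Clopper-Pearson 95% intervals, which cover counting error only.

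Genes were named by rule: 6 fixed genes, the 8 with the most covered bases gained and lost among changes of at least 50 points, up to 4 members per list by cover change and 2 by RNA change, and the 5 most discordant of each kind. Members, lists and rules were chosen with earlier results of these data known. Member counts of lists include autosomal genes not tested in RNA, unless the tested number is given. Alternatives changed the pseudocount, filter, scaling, fit, peak score, gaps, covered length, thresholds and gene intervals. Promoters came from RefSeq (GRCm38.p6), which listed 15117 of the 19725 autosomal genes by symbol.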

Additional observations from a re-analysis of the deposited data

How the results depend on the processing

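RNA calls were 2635 higher and 2708 lower with an absolute log2 change of at least 1. Leaving out each WT library in turn gave 3863 to 4375 higher and 4940 to 5725 lower. With the replicate number as a block, 4118 were higher and 5340 lower. Deviations of same-numbered WT libraries from their group means had a weak negative correlation over genes (−0.174). With 2 libraries per group the second pair mirrors the first, so this is 1 comparison. The crossed block, chosen after seeing the data, gave 4105 and 5344.

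Gains of cover numbered 1352 at the same covered length and 162 at 50 points, and losses 615 at 50 points. Of RNA-higher genes 8.62% gained at the same covered length, 1.33% at 50 points and 3.12% with no filter on low values. Their losses were 4.95% with scores of at least 100, 6.38% at the same length, 2.71% at 50 points, 2.66% with no filter and 3.01% with an absolute log2 change of at least 1. Of RNA-lower genes 4.79% gained with the higher scores, 13.5% at the same length and 1.23% at 50 points. Their losses were 12.7%, 15.3% and 6.90% under these settings, 9.49% with no filter and 11.5% with the log2 minimum. The causes were not tested.

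RS peaks shared with PD were 72.6% with an overlap of at least 50% of the peak, 81.2% with gaps filled and 69.7% at the same length, and PD peaks shared with RS 83.1%, 88.4% and 74.3%, and 84.9% with the higher scores. Under settings chosen after seeing the data, RS cover of at least 50% was found for 1.61% of genes on in RS only at the same length. At a minimum of 90% cover it was 1.61%. For genes on in PD only these were 56.2% and 37.9%, and 83.2% for genes of at least 5 kb.

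Turns of sign were counted only for main changes in cover of at least 25 points, and some smaller changes turned as well. At the same length the counted turns were Ift81 (−6.23 points), Bmp2k (−15.4), Dnah8 (1.5), Usp7 (18.9), Hormad2 (3.43), Pds5b (2.27), Phf1 (2.03), Rpl28 (4.67), Ndufa10 (16.8) and Dnajb4 (30.1). With scores of at least 100 they were Bmp2k (−10.6) and Dnah8 (5.25). Of the other changes in cover of 174 genes, 431 lay within 25 points of the main change and 79 lay further from it, whatever their sign. Of RNA values of 173 genes, 1842 kept their call, 29 lost it and 32 became calls. ChIP depth is unknown, so small differences in cover cannot be bounded.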
